A study of Mus musculus with 36 samples.

Results

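The chromosome 9 matrix metalloproteinase cluster of the mouse is a run of 10 genes, *Mmp13*, *Mmp12*, *Mmp1b*, *Mmp3*, *Mmp1a*, *Mmp10*, *Mmp8*, *Mmp27*, *Mmp20* and *Mmp7*, in this order along the chromosome. The genes were chosen by name, and all 10 were found among the 22392 genes with an Entrez identifier in the GENCODE annotation of mm10, which lists 55450 genes in all. From the first base of *Mmp13* to the last base of *Mmp7* the cluster spans chr9:7272514-7699585, a length of 427 kb. The genes themselves take 37.5% of this length, and stretches within 3 kb of a transcription start site (TSS) take 14.1%. GENCODE lists 3 other genes inside the cluster, the processed pseudogenes *Gm47616* and *Gm19212* and the antisense transcript *AV064505*.

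The study asked how loss of EZH2 activity in acinar cells, the enzyme-secreting cells of the exocrine pancreas, changes 2 histone marks. ChIP-Seq, which sequences the DNA bound to a modified histone, was run for H3K27me3 (K27me3) and H3K4me3 (K4me3) on whole pancreas. Control and *Ezh2*ΔSET pancreata are described here, from 3 mice each, labelled as biological replicates. C57BL/6 mice aged 2 to 4 months all received tamoxifen (TX) by oral gavage, and tissue was taken at day 22. Control mice are labelled wildtype, while the methods of the study allow controls with the *Mist1*creERT allele alone. *Ezh2*ΔSET mice were *Mist1*creERT/+ with floxed *Ezh2* alleles that lose the SET domain, the part with methyltransferase activity. They thus had creERT in place of 1 *Mist1* allele. *Mist1*creERT recombines in acinar cells, whereas the chromatin came from all cells of the pancreas, so fewer cells of a type and less mark per cell cannot be told apart. Deletion of the *Ezh2* SET exons cannot be checked from peaks at a TSS.

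Matrix metalloproteinases are zinc-dependent proteases, most of them secreted as inactive precursors, that cut collagens and other parts of the extracellular matrix. The genes of this cluster arose by tandem duplication, and several are known to be low in resting tissue and switched on in wound repair, inflammation and tumors, in part through AP-1 factors of the FOS and JUN families. K27me3 is placed by Polycomb repressive complex 2, whose catalytic subunit is EZH2 or EZH1, and is linked to gene repression. K4me3 marks the TSS of active or primed genes.

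Peak lists were used here, which give positions without height or read count, so the depth behind them is unknown. K27me3 lists held 21420 to 31274 peaks and K4me3 lists 17400 to 25886, with control replicate 2 lowest for both marks. Control replicate 2 also stood apart in where its K27me3 peaks lay, since 24.5% of all genes had one within 3 kb of a TSS there and 10.6% to 15.5% in the other 5 mice. On the X chromosome there were 17 K27me3 peaks in *Ezh2*ΔSET replicate 2, against 5637 to 7367 in the other 5 mice. The labels give no sex. No list was identical to another. K4me3 within 3 kb of a TSS was present in all 6 mice at 8 of 8 acinar markers (*Ptf1a*, *Bhlha15*, *Rbpjl*, *Nr5a2*, *Cpa1*, *Cela1*, *Ctrb1* and *Pnlip*) and at 4 of 5 duct markers. Among leukocyte markers K4me3 was present in all 6 mice at 1 of 8 (*Cd68*), and 5 of 8 had it in none. Of 6 fibroblast markers 2 had it in all 6 mice (*Col1a1* and *Pdgfra*) and 1 in none (*Col1a2*). Of 5 islet markers 1 had it in all 6 mice (*Pdx1*) and 3 in none. Of all genes tested, 56.6% had K4me3 in all 6 mice and 34.7% in none.

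No TSS of the cluster carried K4me3. In each of the 6 mice, 0 of 10 members had a K4me3 peak within 3 kb. Of all genes tested, 34.7% likewise had it in no mouse. The genes on either side of the cluster differed from it in this respect. All 8 protein-coding genes with a TSS within 500 kb of its ends, *Dync2h1*, *Dcun1d5*, *Tmem123*, *Birc2*, *Birc3*, *Yap1*, *Cfap300* and *Cep126*, had K4me3 in 6 of 6 mice. *Birc2* and *Birc3* encode inhibitors of apoptosis and *Yap1* a coactivator of the Hippo pathway. K4me3 peaks covered 2.57% to 2.85% of these flanks and 0.117% to 0.191% of the cluster.

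One K4me3 peak did lie inside the cluster, at the same place in every mouse. It was 501 to 815 bp wide and the 6 peaks together spanned chr9:7594781-7595616, with 501 bp common to all, the peak of control replicate 2. This stretch is between genes. It begins 12.9 kb past the 3′ end of *Mmp27* and ends 32.6 kb before *Mmp20* and 3.88 kb before the pseudogene *Gm47616*, the annotated TSS closest to it. Of 14168 autosomal stretches covered by K4me3 in all 6 mice, 1685 (11.9%) were likewise more than 3 kb from any annotated TSS. The central 300 bases of the common stretch, chr9:7595047-7595346 on the plus strand of mm10, are shown because this was the only K4me3 in the cluster, with CpG dinucleotides in capitals.

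K4me3 peak: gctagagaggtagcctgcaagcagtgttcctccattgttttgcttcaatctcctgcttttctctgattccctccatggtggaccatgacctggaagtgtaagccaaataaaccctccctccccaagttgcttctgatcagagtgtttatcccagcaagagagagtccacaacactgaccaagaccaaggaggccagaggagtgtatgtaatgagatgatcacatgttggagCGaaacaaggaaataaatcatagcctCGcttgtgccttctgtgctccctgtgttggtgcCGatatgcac

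The printed bases hold 3 CpGs. Over the 501 bp common to the 6 mice there were 5 CpGs, or 9.98 per kb, against 7.09 per kb in the cluster and 8.59 per kb on chromosome 9. Over the whole span of the 6 peaks there were 8.37 per kb, below chromosome 9. The GC content of the 501 bp was 49.1%, and that of the cluster was 40.8%. The ratio of observed CpGs to those expected from base composition was 0.166 in the 501 bp, 0.170 in the cluster and 0.194 on chromosome 9. The K4me3 cover of the cluster, which is the width of this peak, was 0.191%, 0.117% and 0.184% in control mice and 0.181%, 0.177% and 0.183% in *Ezh2*ΔSET mice. The *Ezh2*ΔSET values lay within the range of the controls, in which replicate 2 was lowest. The means, 0.164% ± 0.0406 and 0.180% ± 0.00295 (SD, n = 3 each), did not differ beyond the spread between mice (exact permutation test, p = 1, adjusted p = 1). This value rested on control replicate 2, without which the 3 *Ezh2*ΔSET mice lay below both remaining controls, with a difference of -0.0073 points (exact permutation test, p = 0.1, the smallest that 3 mice against 2 allow).

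K27me3 was present in the cluster in every mouse, as 6 to 8 listed peaks each. Peaks are counted here before merging, and some in control replicates 1 and 2 overlapped each other. The 6 mice had 42 such peaks. Of these, 15 (35.7%) had the smallest width in the lists, 5001 bp, and the share on all autosomes was 39.98%. The widest, 15.5 kb in *Ezh2*ΔSET replicate 1, ran over most of *Mmp1a* and past its 3′ end. There were 19 peaks that touched no member gene, 23 that touched at least one, and 8 that came within 3 kb of a member's TSS. The map of the peaks shows that most lay in the middle of the cluster, from *Mmp1b* to just past *Mmp27*, and that the same few places recurred from mouse to mouse. Control replicate 2 differed, with 4 of its 6 peaks in or next to *Mmp20*.

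**Figure D1:**
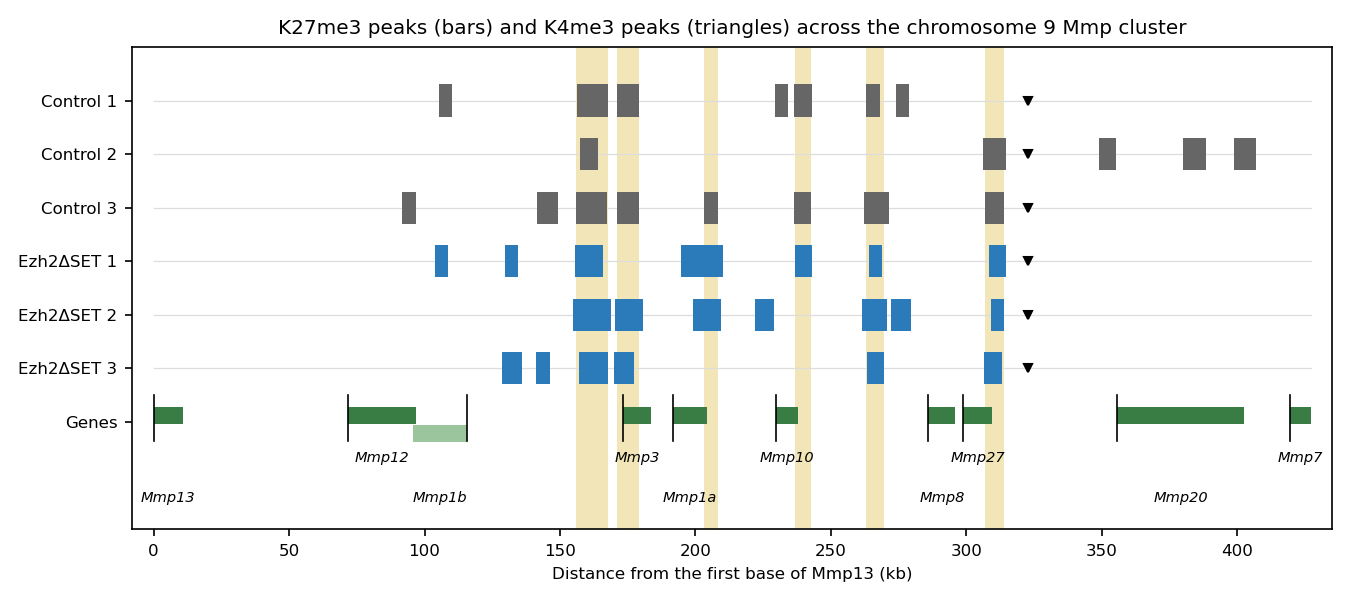
Peaks along the cluster in each of the 6 mice, by distance in kb from the first base of *Mmp13*. Bars are K27me3 peaks to scale, gray for control and blue for *Ezh2*ΔSET mice, triangles are the K4me3 peak of each mouse, pale bands are the 6 stretches covered by K27me3 in at least 3 of 6 mice, and green boxes are genes with a black line at the TSS (the paler green box is *Mmp1b*, on the minus strand). The K4me3 peak sits at one position in all mice, and no K27me3 peak touches *Mmp13*, *Mmp8* or *Mmp7*.

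K27me3 covered 10.7%, 8.87% and 13.8% of the cluster in control replicates 1, 2 and 3, and 12.5%, 15.0% and 10.2% in the *Ezh2*ΔSET mice. The groups overlapped, with the lowest value in a control and the highest in an *Ezh2*ΔSET mouse. Over the 6 mice the mean was 11.9% ± 2.33 (SD, n = 6), or 50.6 kb ± 9.95. The cluster was richer in K27me3 than the autosomes, of which 6.06% to 9.16% was covered, in 6 of 6 mice, by a mean of 4.53 percentage points (exact sign-flip permutation test over mice, two-sided p = 0.03125, the smallest that 6 mice allow). It was also richer than the 500 kb on either side, of which 1.40% to 8.15% was covered, in 6 of 6 mice, by a mean of 8.92 points (exact sign-flip permutation test, p = 0.03125). Control replicate 2 had the highest flank value, and without it the mean difference was 10.56 points. With equal numbers of the widest peaks in each library, the excess over the autosomes was 3.46 points, above 0 in 5 of 6 mice (exact sign-flip permutation test, p = 0.0625). These comparisons within a mouse were chosen after the values were seen, and their p-values are not adjusted. Such a p-value measures the spread between mice at this locus and does not rank the cluster among stretches of its length.

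**Figure D2:**
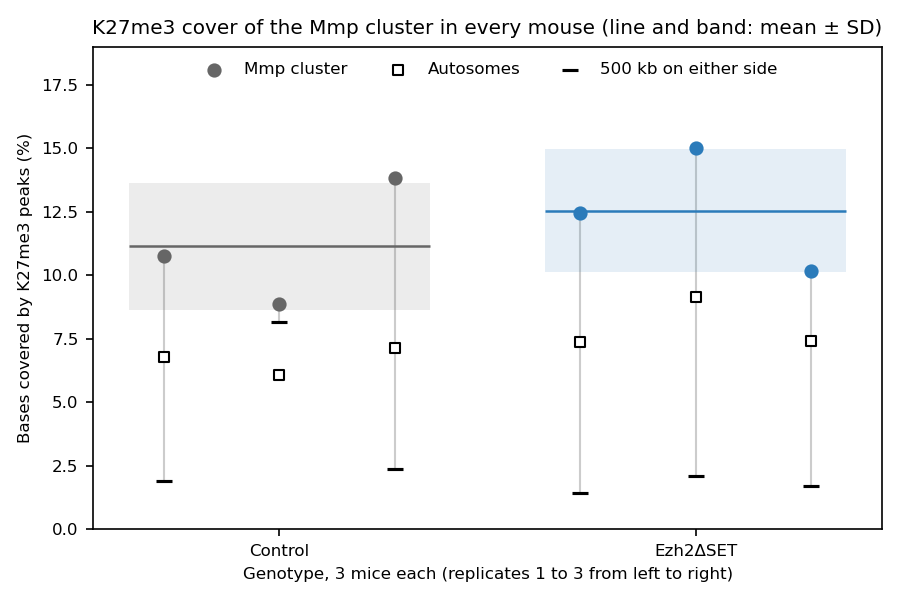
Percent of bases covered by K27me3 peaks in the cluster (filled circles), on all autosomes (open squares) and in the 500 kb on either side of the cluster (dashes) for each mouse. Colored lines and bands are the mean ± SD of the cluster in 3 mice per genotype. The cluster lies above both other values in all 6 mice, and the genotypes overlap.

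Inside the cluster, K27me3 was not enriched near the TSSs. Of the K27me3-covered bases of the cluster, 18.9%, 6.84% and 8.85% in control mice and 0%, 13.0% and 13.8% in *Ezh2*ΔSET mice were within 3 kb of a member's TSS, whereas 14.1% of the cluster was. The share was below that of the cluster in all mice but control replicate 1, and the mean difference, -3.85 points, was within the spread between mice (exact sign-flip permutation test, p = 0.156). It was -1.81 points without *Ezh2*ΔSET replicate 1, -5.58 points without control replicate 1, and -6.22 points with libraries cut to the same number of their widest peaks. The share of covered bases that were in genes, 28.3% ± 9.47 (SD, n = 6), was below the 37.5% of the cluster in all mice but control replicate 2, a difference of -9.20 points that did not pass 0.05 (exact sign-flip permutation test, p = 0.0938). Both comparisons were chosen after the values were seen.

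Of the 10 members, 3 had K27me3 within 3 kb of a TSS in at least 1 of 6 mice, against 33.1% of all genes tested. When at least 50% of the window had to be covered, *Mmp20* lost its call and *Mmp10* was called in 1 mouse. With libraries cut to the same number of their widest peaks, *Mmp3* was called in 3 mice and *Mmp10* in 1. No member had it in all 3 mice of either genotype. The background for this was 5.8% of genes in control and 7.39% in *Ezh2*ΔSET pancreata, and 3.62% of genes had it in all 6 mice. With the wider window by which the study called K27me3 genes, which reaches 100 kb before and 3 kb past a TSS, 5 members had K27me3 in all 3 control mice, against 20% of all genes, and 7 in all 3 *Ezh2*ΔSET mice, against 24.3%. *Mmp1b*, *Mmp3*, *Mmp1a*, *Mmp10* and *Mmp20* were called in 6 of 6 mice by that window, *Mmp8* and *Mmp27* in 5, *Mmp7* in 1 and *Mmp13* and *Mmp12* in none. Such windows of neighboring members overlap, so 1 peak can call several of them. The plot of distances shows *Mmp3* as the one member called in more than 2 mice.

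**Figure D3:**
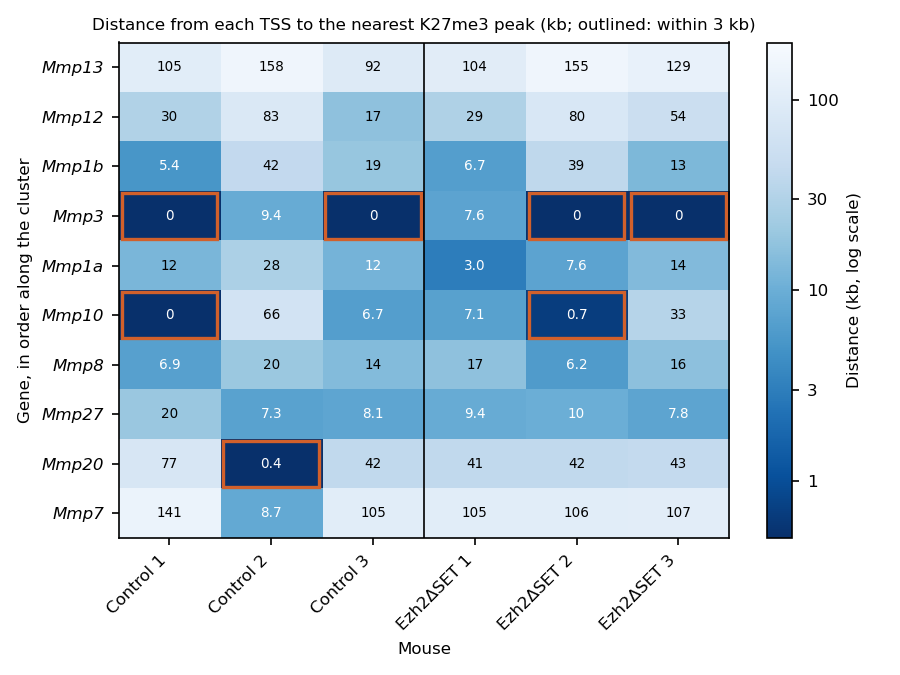
Distance in kb from the TSS of each member (rows, in order along the cluster) to the nearest K27me3 peak in each mouse (columns), on a log color scale. For genes with several TSSs the smallest distance is shown, 0 means that the peak covers a TSS, and orange outlines mark distances within 3 kb. *Mmp3* is outlined in 4 of 6 mice, *Mmp10* in 2 and *Mmp20* in 1.

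The stromelysins *Mmp3* and *Mmp10*, which have a broad range of matrix substrates and can activate other metalloproteinase precursors, are the only members with a peak directly over the TSS. *Mmp3* (chr9:7445822-7455975, plus strand) had K27me3 over its TSS in 2 of 3 control and 2 of 3 *Ezh2*ΔSET mice. In the mice without a call, the nearest peak was 9.42 kb away in control replicate 2 and 7.60 kb in *Ezh2*ΔSET replicate 1. By calls within 3 kb of a TSS, *Mmp3* was thus the member most often marked, and its TSS was within 10 kb of a peak in every mouse. K27me3 covered 57.5%, 0% and 56.4% of the *Mmp3* gene in control mice and 0%, 73.4% and 40.8% in *Ezh2*ΔSET mice. Each genotype had 1 mouse with none of the gene covered and 2 with over 40%. *Mmp10* (chr9:7502352-7510240) was called in control replicate 1, where a peak covered the TSS, and in *Ezh2*ΔSET replicate 2, where a peak ended 0.687 kb from it. In the other 4 mice the nearest peak was 6.68 to 65.95 kb from its TSS.

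The collagenases *Mmp13*, *Mmp8* and *Mmp1a* cut fibrillar collagens, *Mmp8* being the collagenase of neutrophils. *Mmp1a* and *Mmp1b* are the rodent counterparts of human *MMP1* by sequence. None of *Mmp13*, *Mmp8*, *Mmp1a* and *Mmp1b* was called in any of the 6 mice. *Mmp13* (chr9:7272514-7283331), the first gene of the cluster, had no K27me3 over any base, and the nearest peak was 91.7 to 158 kb from its TSS. *Mmp8* (chr9:7558456-7568485) had none over its body either, with peaks 6.18 to 20.3 kb from its TSS. *Mmp1b* (chr9:7368239-7388047, minus strand) and *Mmp1a* (chr9:7464141-7476869) had K27me3 over part of the gene in 3 of 6 mice each. It covered 25.2% and 5.003% of *Mmp1b* in control replicates 1 and 3 and 25.2% in *Ezh2*ΔSET replicate 1. It covered 9.32% of *Mmp1a* in control replicate 3, and 76.3% and 40.5% in *Ezh2*ΔSET replicates 1 and 2. The peak in *Ezh2*ΔSET replicate 1 began 3.02 kb from the *Mmp1a* TSS, just outside the window. GENCODE classes *Mmp1a* as a polymorphic pseudogene. The 3′ ends of *Mmp12* and *Mmp1b* overlap on opposite strands, so peaks there belong to both.

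*Mmp12*, the elastase of macrophages, had no call, and K27me3 covered 19.9% of it in control replicate 3 and none in the other 5 mice. *Mmp27*, a less studied member, had no call at the TSS but was the member most often touched. K27me3 covered 0%, 29.96% and 22.2% of it in control mice and 9.85%, 3.25% and 25.3% in *Ezh2*ΔSET mice, at the 3′ end. *Mmp20*, the enamel protease of developing teeth, was called in control replicate 2, 0.411 kb upstream of its TSS, and the nearest peak was 41.1 to 76.7 kb away in the other 5 mice. *Mmp7* (chr9:7692090-7699585), matrilysin, known from metaplastic ducts and lesions of the pancreas, had no call and no K27me3 in its body in any mouse. The nearest peak to *Mmp7* was 8.72 kb away in control replicate 2 and 105 to 141 kb in the others.

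Promoter sequences are shown for the stromelysins, whose TSS regions carried K27me3, and for *Mmp13*, *Mmp1a* and *Mmp1b*, without it at the TSS. Each is the 250 bases before the start of the RefSeq transcript in GRCm38.p6 (mm10), read in the direction of the gene, with matches to the AP-1 motif TGANTCA in capitals. The stretches are chr9:7445572-7445821 for *Mmp3*, chr9:7502092-7502341 for *Mmp10*, chr9:7272264-7272513 for *Mmp13*, chr9:7463891-7464140 for *Mmp1a* and chr9:7388027-7388276 on the minus strand for *Mmp1b*.

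Mmp3: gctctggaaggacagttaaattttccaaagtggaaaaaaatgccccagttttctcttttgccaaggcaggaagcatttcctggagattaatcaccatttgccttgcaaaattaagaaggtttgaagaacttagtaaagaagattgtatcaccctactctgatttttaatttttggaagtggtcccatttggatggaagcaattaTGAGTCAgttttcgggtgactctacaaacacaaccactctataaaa
Mmp10: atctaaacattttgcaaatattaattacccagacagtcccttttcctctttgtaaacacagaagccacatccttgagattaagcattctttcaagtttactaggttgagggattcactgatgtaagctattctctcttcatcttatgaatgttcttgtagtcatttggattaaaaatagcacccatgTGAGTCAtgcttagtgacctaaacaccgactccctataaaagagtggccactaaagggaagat
Mmp13: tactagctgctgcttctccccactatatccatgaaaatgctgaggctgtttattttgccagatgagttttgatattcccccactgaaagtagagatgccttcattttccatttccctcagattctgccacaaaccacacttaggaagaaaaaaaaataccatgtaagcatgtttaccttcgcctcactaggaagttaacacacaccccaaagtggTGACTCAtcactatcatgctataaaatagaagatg
Mmp1a: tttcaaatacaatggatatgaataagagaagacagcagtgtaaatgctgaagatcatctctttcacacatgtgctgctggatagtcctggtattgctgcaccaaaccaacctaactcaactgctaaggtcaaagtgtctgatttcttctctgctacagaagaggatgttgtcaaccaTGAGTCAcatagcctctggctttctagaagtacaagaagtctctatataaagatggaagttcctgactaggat
Mmp1b: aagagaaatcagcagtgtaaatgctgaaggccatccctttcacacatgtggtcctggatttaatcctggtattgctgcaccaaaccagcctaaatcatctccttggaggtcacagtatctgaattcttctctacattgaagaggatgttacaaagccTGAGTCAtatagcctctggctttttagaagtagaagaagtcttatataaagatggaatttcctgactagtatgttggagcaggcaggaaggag

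Each of these promoters holds 1 match, which begins 46 bases before the start in *Mmp3*, 63 in *Mmp10*, 35 in *Mmp13*, 73 in *Mmp1a* and 93 in *Mmp1b*. RefSeq lists 12 promoters for the 10 members, and 8 of the 12 had a match on either strand, each at a different gene. *Mmp8* and *Mmp27* had none. Among all 32851 promoters of the same length, 6.75% had a match. The TATA motif TATAAA was found in 7 of the 12 promoters and in 12.4% of all promoters. The members' promoters held a median of 1 CpG, against 6 for all promoters. A match is a match of letters and does not show that a factor was bound in these mice. The *Mmp1a* and *Mmp1b* promoters were 71.1% identical over an alignment of their 250 bases, the highest value among the 45 pairs of members, and *Mmp3* and *Mmp10* came next with 55.6%. Whether reads from these promoters have several placements was not tested, and how the authors treated such reads is not given in the sources used here.

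K27me3 recurred at 6 places in the cluster, here taken as stretches covered in at least 3 of 6 mice and joined over gaps of up to 3 kb. They were chosen from these peaks and are given as a description. The first, chr9:7428534-7440167, was the most recurrent. It was 11.6 kb long, lay between *Mmp1b* and *Mmp3* without touching a gene, ended 5.66 kb before the *Mmp3* TSS and held a peak in 6 of 6 mice. K27me3 covered 98.6%, 54.4% and 95.9% of it in control mice and 83.3%, 100% and 92.0% in *Ezh2*ΔSET mice. The second, chr9:7443598-7451552, covered the *Mmp3* TSS and held a peak in 4 mice, without control replicate 2 and *Ezh2*ΔSET replicate 1. The third, chr9:7475684-7480684, ran from the 3′ end of *Mmp1a* and held a peak in 3 mice. The fourth, chr9:7509453-7515296, ran from the 3′ end of *Mmp10* and held a peak in 3 mice. The fifth, chr9:7535548-7542094, lay between *Mmp10* and *Mmp8* and held a peak in 5 mice, all but control replicate 2. The sixth, chr9:7579555-7586611, ran from the 3′ end of *Mmp27* and held a peak in 5 mice, all but control replicate 1. Only the second included a TSS, so the most recurrent K27me3 of the cluster was between its genes or at their 3′ ends. The 6 stretches together held 35.3% of the covered bases of control replicate 2 and 56.4% to 73.8% of those of the other mice.

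Over the whole cluster, the position of K27me3 varied between mice. At least 1 of 6 mice had K27me3 over 31.7% of the cluster and over 18.9% of the autosomes, at least 3 mice over 10.3% and 6.82%, and all 6 mice over 1.48% and 0.899%. The bases covered in all 6 mice were 6326 bp of the first stretch. The plot of bases by number of mice shows the cluster above the autosomes at every number. Pairs of mice of the same genotype shared a median of 33.6% of the cluster bases covered in either mouse (6 pairs), and pairs of different genotypes 32.0% (9 pairs). Pairs with control replicate 2 shared a median of 16.0%. Without control replicate 2 the medians were 35.4% and 37.7%.

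**Figure D4:**
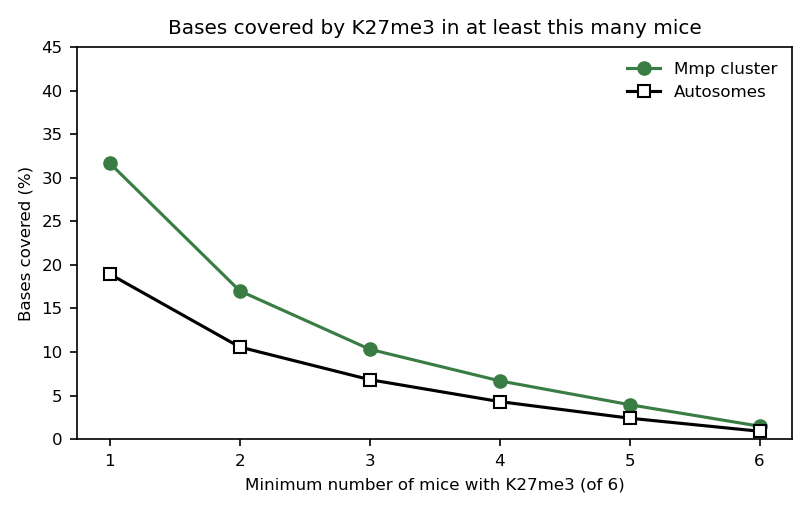
Percent of bases covered by K27me3 in at least the number of mice on the horizontal axis, of 6, for the cluster (green circles) and the autosomes (open squares). The cluster falls from 31.7% at 1 mouse to 1.48% at 6 mice, and the autosomes from 18.9% to 0.899%.

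The stretches with recurrent K27me3 were rich in repetitive sequence. Soft-masked bases, which the reference sequence marks as repeats or low complexity, made up 65.2% of the 6 stretches and 45.9% of the rest of the cluster. The first stretch was 90.6% soft-masked, the fifth 68.1% and the sixth 72.3%. The second, at the *Mmp3* TSS, was 21.3%. Soft-masked bases made up 61.1%, 47.2% and 66.5% of the covered bases of the cluster in control mice and 72.2%, 60.6% and 73.9% in *Ezh2*ΔSET mice. This share was above the 47.8% of the whole cluster in 5 of 6 mice, all but control replicate 2 (mean difference 15.7 points, exact sign-flip permutation test, p = 0.0625, chosen after the values were seen). On the autosomes the shares were 37.9% of covered bases and 33.5% of all bases. The part of read placement in repeats was not tested. CpGs were at 5.06 per kb in the 6 stretches and 7.33 per kb in the rest of the cluster.

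Between genotypes, the K27me3 cover of the cluster did not differ beyond the spread between mice. Group means were 11.1% ± 2.5 in control and 12.6% ± 2.41 in *Ezh2*ΔSET pancreata (SD, n = 3 each). *Ezh2*ΔSET mice were 1.41 points above control (exact permutation test, p = 0.6, adjusted p = 1 over 3 tests on the cluster). With 3 mice against 3, the smallest two-sided p that an exact permutation test can give is 0.1. The difference was 0.269 points without control replicate 2 and 0.178 points without *Ezh2*ΔSET replicate 2, the mouse with few X-chromosome peaks, but 2.74 points without control replicate 3 and 2.59 points without *Ezh2*ΔSET replicate 3. It was 2.42 points when libraries were cut to the same number of their widest peaks, and 0.824 points with 50 kb added on each side of the cluster. As a ratio to the autosomes of the same mouse, the cover of the cluster was 1.66 ± 0.245 in control and 1.57 ± 0.169 in *Ezh2*ΔSET pancreata, an order opposite to that of the percentages, since 6.66% ± 0.554 and 7.98% ± 1.02 of the autosomes were covered.

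The number of members with K27me3 near a TSS did not separate the genotypes either. Control replicates 1, 2 and 3 had 2, 1 and 1 such members of 10, where 10.6%, 24.5% and 13.4% of all genes had it. *Ezh2*ΔSET mice had 0, 2 and 1, where 14.1%, 12.3% and 15.5% of all genes had it. The groups overlapped and the difference of -0.333 members was within the spread between mice (exact permutation test, p = 1, adjusted p = 1). Its direction was not stable, being -0.833 without *Ezh2*ΔSET replicate 2, 0.167 without *Ezh2*ΔSET replicate 1, and 0.333 both with libraries cut to the same number of peaks and with the study's window. *Mmp3* and *Mmp10* were the members called in control replicate 1 and again in *Ezh2*ΔSET replicate 2, and *Mmp3* alone in control replicate 3 and *Ezh2*ΔSET replicate 3.

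No member went from K27me3 in all 3 mice of one genotype to none of the other, and 0.183% of all genes did so between *Ezh2*ΔSET and control pancreata.

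Of 13 metalloproteinase genes elsewhere in the genome, 7 had K4me3 in all 6 mice (*Mmp9*, *Mmp11*, *Mmp14*, *Mmp15*, *Mmp17*, *Mmp25* and *Mmp28*), 2 in 4 or 5 mice and 4 in none. Of all genes, 56.6% had it in all 6 mice. The gelatinase *Mmp2* was among those with none and had K27me3 in 1 of 6 mice, and *Mmp9*, the other gelatinase, had K4me3 in 6 and K27me3 in 2. *Mmp24* had K27me3 in 3 mice, 2 of them *Ezh2*ΔSET, and K4me3 in none. Of 4 tissue inhibitors of metalloproteinases, *Timp2* and *Timp3* had K4me3 in all 6 mice, *Timp4* in 1 and *Timp1* in none. *Timp1*, which is on the X chromosome, had K27me3 in 1 of 3 control and 2 of 3 *Ezh2*ΔSET mice. Of 12 regulators of metalloproteinases, 9 had K4me3 in all 6 mice, against the same 56.6% of all genes, among them the AP-1 genes *Fos*, *Fosl1*, *Fosl2*, *Jun*, *Junb* and *Jund*, the protease *Plau* and the inhibitor *Reck*. *Plg*, the plasminogen gene expressed in liver, had it in none.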

How the data were processed

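ChIP-Seq peaks for K27me3 and K4me3 were analyzed in 12 lists, 1 per mark and mouse, from 3 control and 3 *Ezh2*ΔSET mice. Other genotypes of the series are not reported here. The authors checked reads with FastQC, used bowtie2 for alignment to mm10, and ran the histone mode of HOMER findPeaks on each library separately, against local background and the matching input. Tool versions are not given in the sources used here. The deposited values used were the start and end positions of peaks, as scores were 1 throughout. With neither counts nor heights, a difference in depth would change the number and width of peaks. The input libraries and RNA-Seq were not analyzed here.

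Overlapping peaks of a mouse were merged. Covered bases were divided by the length of the cluster, and a gene was called when a peak overlapped the 3 kb on either side of any TSS in GENCODE vM21 by at least 1 bp. No peak ran past a chromosome end of GRCm38. Promoters were taken from RefSeq (GRCm38.p6). Promoter pairs were aligned globally. Exact permutation tests over mice (two-sided) compared the genotypes, with Benjamini-Hochberg adjustment over 3 tests. The p-values measure the spread between mice, and those of the sign-flip tests are not adjusted. Named genes were all members, the protein-coding genes within 500 kb, and fixed lists of other *Mmp*, *Timp*, regulator and cell type marker genes. The members and lists were chosen with earlier results of these data known. Gene calls and tests were checked on simulated peaks and values. Python 3.11.15, numpy 2.4.6, pandas 2.3.3, statsmodels 0.14.6 and matplotlib 3.10.9 were used.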

Additional observations from a re-analysis of the deposited data

How the results depend on the processing

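The depth of the libraries is unknown, K27me3 peaks are at least 5001 bp wide, and 3 mice against 3 cannot give p below 0.1, so a difference of any size between the genotypes would miss 0.05. Across 4 results on the genotypes and 53 alternative values, 8 values changed sign. The cause was not tested. The 53 include values that could not change sign. The number of members with K4me3 near a TSS was 0 in every mouse, so its alternative values stayed at 0. The minimum width set for K27me3 peaks removed none, so it repeated the reported values.

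As a ratio to the autosomes, K27me3 cover differed by -0.0928 and K4me3 cover by -0.00067 between *Ezh2*ΔSET and control mice. With equal numbers of the widest autosomal peaks (15782 for K27me3 and 16912 for K4me3), the difference was 2.42 points of K27me3 cover, 0.333 members and -0.0391 points of K4me3 cover, the last because the K4me3 peak of the cluster was kept in 1 control mouse only. With the study's window from 100 kb upstream to 3 kb downstream, which called 6 or 7 members in each mouse, it was 0.333 members. With 50 kb added on each side of the cluster, K27me3 cover differed by 0.824 points. By medians, K4me3 cover differed by -0.0035 points.

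Leaving out each mouse in turn, *Ezh2*ΔSET differed from control by 0.178 to 2.74 points of K27me3 cover, by -0.833 to 0.167 members and by -0.0073 to 0.0295 points of K4me3 cover. The lowest K4me3 value was that without control replicate 2 (exact permutation p = 0.1, the smallest possible). The excess of K27me3 over the autosomes was 4.10 to 4.88 points, that over the flanks 8.12 to 10.56 points, and the share near TSSs minus that of the cluster -5.58 to -1.81 points. With 5 mice the smallest exact sign-flip p is 0.0625, so no comparison within a mouse could pass 0.05 there. With equal numbers of peaks the excess over the autosomes was 3.46 points (exact sign-flip p = 0.0625).

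With the replicate block, which pairs mice by number and cannot give an exact p below 0.25, K27me3 cover differed by 1.41 points (exact sign-flip p = 0.75), with no call to change. Deviations of autosomal K27me3 cover from the genotype mean, over 19 autosomes, correlated at 0.203, -0.00126 and 0.343 between mice of the same number, so the numbers are not taken to pair the mice. K27me3 peaks of at least 5 kb were all peaks of the lists. K4me3 peaks of at least 1 kb left none in the cluster. No member had K4me3 within 3 kb or 1 kb of a TSS under the alternatives run, and the 100 kb window was not run for K4me3.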
